A study of Mus musculus with 2 samples.

Results

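Muscle satellite cells and early myoblasts of the mouse rib repair callus were selected on their UMI counts from a single-cell RNA-seq experiment. A cell counted as one when it had at least 200 genes, less than 10% of its UMIs (unique molecular identifiers, each standing for 1 captured transcript) from mitochondrial genes, no UMI of *Ptprc*, *Pecam1* or *Myog*, and at least 3 UMIs of *Pax7*, *Myf5* and *Myod1* together. *Ptprc* marks blood cells, *Pecam1* marks endothelium, and *Myog* marks muscle cells that have started to differentiate. The rule found 140 of the 19564 cells that passed the gene and mitochondrial filters, 50 of 10057 in the control library and 90 of 9507 in the *Smo* cKO library. These 140 cells are called myogenic cells here.

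The experiment asked how a rib callus is altered when *Smo*, the membrane protein that passes on Hedgehog signals, is removed from cells that expressed *Sox9* before the injury. Mice of both sexes, 8 to 12 weeks old, had a 3 mm segment of rib resected, and calluses were excised at 4 dpi (days post injury) with most of the neighbouring muscle left behind. Controls were *Sox9*:CreER;*R26*:tdT;*Smo* f/+ and *Smo* cKO mice were *Sox9*:CreER;*R26*:tdT;*Smo* f/f, so both genotypes carried the inducible Cre, the tdTomato reporter and at least 1 floxed allele, and the methods describe tamoxifen doses given before surgery. Cells of 3 animals were pooled into 1 10x Genomics 3′ library per genotype. The Cre is driven by *Sox9*, and the pooling leaves no way to measure the spread between animals. Every difference between genotypes below is therefore a difference between 2 libraries with no test, and every 95% interval covers counting error only.

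Satellite cells are the resident stem cells of skeletal muscle and lie between the muscle fibre and its basal lamina. They are marked by the paired-box transcription factor *Pax7* and are held at rest in part by Notch signalling. After injury they divide and express the myogenic regulators *Myf5* and *Myod1*, and their progeny then turn on *Myog*, leave the cell cycle and fuse into fibres.

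The control myogenic cells held 903166 UMIs of the 104189394 in that library's kept cells, and the *Smo* cKO myogenic cells held 1388320 of 110863278. Below, values given in pairs are control first and *Smo* cKO second. Their median depth was 14086.5 and 11392.5 UMIs per cell, against 8367 and 9092 over all kept cells, and their median number of genes was 3273.5 and 2922. Most therefore lay above the upper limit of 2000 genes used in the study's own filter, which would leave 6 control and 22 *Smo* cKO cells, and that limit was not applied here. The smallest rule sum, 3 UMIs, was held by 25 of 50 and 26 of 90 cells, and the highest sums were 11 and 15.

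The rule genes were on mouse build GRCm38 (mm10) at chr4:139737062-139833528 on the minus strand for *Pax7*, at chr10:107482908-107486134 on the minus strand for *Myf5*, and at chr7:46376474-46379099 on the plus strand for *Myod1*. *Cdh15*, which encodes the muscle adhesion protein M-cadherin and was not part of the rule, lies at chr8:122847966-122867397 on the plus strand. *Smo* lies at chr6:29735503-29761365 on the plus strand.

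*Cdh15* was used to check the name of the cells. At least 1 *Cdh15* UMI was found in 33 of 50 and 68 of 90 myogenic cells. Cells that met the exclusions but held no rule UMI had *Cdh15* in 1.27% of 7816 and 3.04% of 6252 cells. Just inside the rule, at 3 UMIs, *Cdh15* was in 68.0% of 25 and 53.8% of 26 cells. Just outside it, at 2 UMIs, it was in 76.3% of 38 and 84.2% of 57 cells, so the cut-off did not separate cells with *Cdh15* from cells without it. *Des*, the intermediate filament desmin of muscle, was in 96.0% and 96.2% of the cells at 3 UMIs.

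Free RNA in droplets can place a few UMIs of a gene in a cell that does not express it. Blood cells, taken as cells with *Ptprc* and no *Pdgfra*, held at least 3 rule UMIs in 3 of 1140 (0.263%) and 11 of 1374 cells (0.801%). At least 1 rule UMI was held by 4 and 38 of these blood cells. Unlike the myogenic cells, they were not screened for *Pecam1* or *Myog*, so the shares do not rest on the same exclusions. Their median depth was lower, 3286.5 and 3843.5 UMIs. The myogenic cells made up 0.497% and 0.947% of all kept cells, so rule UMIs at this level also occurred in cells that should lack them. In *Cdh15*, which the rule did not use, blood cells stood at 4.22 and 7.14 CPM (counts per 1e6 of the UMIs summed over the cells of a group) and myogenic cells at 106 and 179 CPM.

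The myogenic cells fell into a collagen-poor and a collagen-rich set. Collagen here is the percent of a cell's UMIs from *Col1a1* and *Col3a1*, the main fibrillar collagens of connective tissue, and the cut at 0.4% was chosen after the values were seen. The collagen-poor set held 29 control and 65 *Smo* cKO cells and the collagen-rich set held 21 and 25. The gap between the sets ran from 0.243% to 0.533% in control cells and from 0.268% to 0.438% in *Smo* cKO cells, with 0 and 1 cells between 0.3% and 0.5%. The median in blood cells was 0.103% and 0.0847%. The median in connective cells, meaning cells with at least 3 UMIs of *Pdgfra* and *Prrx1* and none of the rule genes, was 1.97% and 1.65%. Collagen-poor cells thus lay near blood cells in collagen and collagen-rich cells near connective cells.

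**Figure D1:**
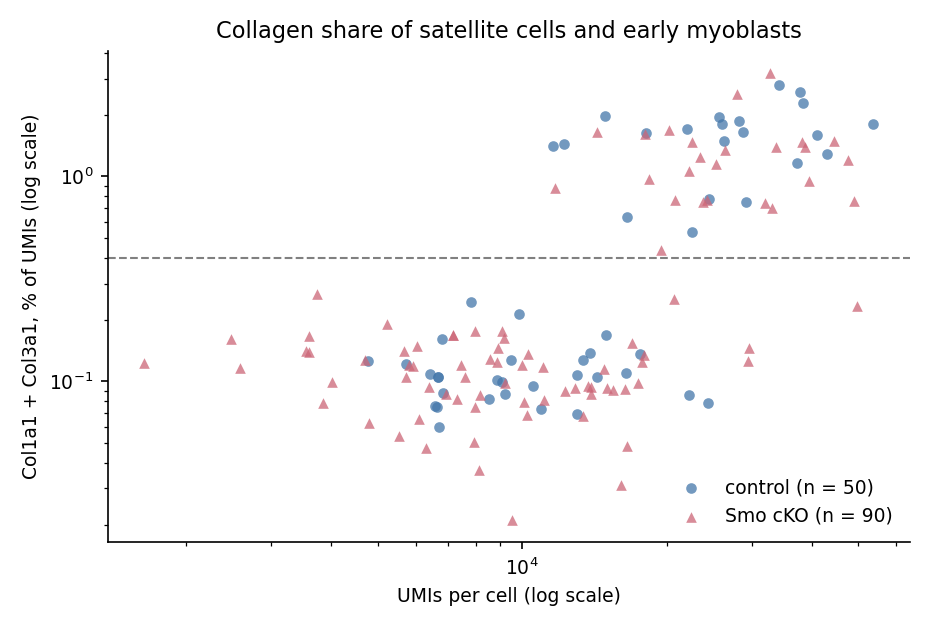
Each point is 1 myogenic cell (control blue circles, n = 50; *Smo* cKO red triangles, n = 90), with its UMIs on a log x axis and the percent of UMIs from *Col1a1* and *Col3a1* on a log y axis, and the dashed line marks 0.4%. Cells above the line are also the deeper ones, with median depths of 26311 and 25270 UMIs against 9203 and 8580 below it.

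Depth differed between the sets. The collagen-rich cells had medians of 26311 and 25270 UMIs, above connective cells at 13519 and 16216. The collagen-poor cells had 9203 and 8580. The level of *Dcn* (decorin) followed the split, at 32.1 and 41.1 CPM in collagen-poor cells and at 571 and 701 CPM in collagen-rich cells. *Pdgfra*, the receptor that marks fibroblastic progenitors of muscle, was at 6.43 and 14.7 CPM in collagen-poor cells, 67.6 and 62.2 CPM in collagen-rich cells, and 128 and 99.2 CPM in connective cells. The connective cells were chosen on *Pdgfra* and *Prrx1*, so their level follows from that choice. Only 6 control and 22 *Smo* cKO myogenic cells held no UMI of either gene. Most collagen-poor cells therefore held at least 1 UMI of *Pdgfra* or *Prrx1*, so the split was not one of presence and absence of these genes. Median doublet scores from the tool Scrublet were 0.150 and 0.177 in collagen-rich and 0.0315 and 0.0221 in collagen-poor cells. In connective cells both were 0.0793. The top 8% of scores in each library held 4 and 14 myogenic cells, of which 1 and 1 were collagen-poor. Droplets with more than 1 cell, cells that express both programmes and free collagen RNA cannot be told apart in these counts. Results below are given for the collagen-poor set where it differs.

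Some barcodes occurred in both libraries. They numbered 613, which was 5.70% and 5.83% of each library's barcodes, and the deeper copy held a median of 59.3 times the UMIs of the shallower. Among the myogenic cells 8 in each library carried such a barcode, 6 of them collagen-rich in each, and none was a myogenic cell in both. In 7 of the 8 in each library the myogenic cell was the deeper copy, with a median of 37830 and 36271.5 UMIs against 610 and 734 in its partner.

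The myogenic cells made up a larger share of the *Smo* cKO library. The share was 0.497% (Clopper-Pearson interval 0.369 to 0.655) against 0.947% (0.762 to 1.16), which is 0.450 percentage points more (0.213 to 0.696 by Newcombe's method) and a ratio of 1.90. Without barcodes found in both libraries it was 0.444% (42 of 9449) and 0.921% (82 of 8903), a difference of 0.477 points. With the rule applied after thinning to 5000 UMIs it was 0.146% (10 of 6861) and 0.648% (41 of 6324), with at most 2000 genes per cell 0.142% and 0.570%, and without cells holding *Pdgfra* or *Prrx1* 0.0597% and 0.231%, so the ratio was larger in each of these. It was smaller, at 1.77, 1.77 and 1.75, with at least 2 rule UMIs (0.875% and 1.55%), with under 5% mitochondrial UMIs (0.522% and 0.927%) and without the top 8% of doublet scores (0.457% and 0.799%). The collagen-poor cells were at 0.288% and 0.684%, a ratio of 2.37. The collagen-rich cells were at 0.209% and 0.263%, a difference of 0.0542 points whose interval of −0.0849 to 0.198 included 0. *Myog*-holding cells, which met every other part of the rule but had at least 1 *Myog* UMI, numbered 74 (0.736%) and 186 (1.96%), a ratio of 2.66. How much neighbouring muscle came along with each callus was not measured, and its part in these shares was not tested.

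Among the regulators, *Pax7* was at 86.4 CPM in control and 112 CPM in *Smo* cKO myogenic cells, and 39 of 50 and 71 of 90 cells held it. *Myf5* was at 102 and 161 CPM, in 43 and 78 cells. *Myod1* was at 44.3 and 44.7 CPM, in 18 and 35 cells. These levels follow from the rule and are a description. In collagen-poor cells all 3 were higher, with *Pax7* at 141 and 170 CPM, *Myf5* at 177 and 232 CPM, and *Myod1* at 77.1 and 69.0 CPM.

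Among the genes outside the rule, *Cdh15* was at 106 and 179 CPM in the myogenic cells, 196 and 276 CPM in the collagen-poor set, 59.1 and 86.2 CPM in the collagen-rich set and 1.07 and 2.62 CPM in connective cells. *Itga7*, the laminin-binding integrin of muscle, was at 72.0 and 60.5 CPM, with 122 and 80.8 CPM in the collagen-poor and 45.6 and 41.0 CPM in the collagen-rich set. The order collagen-poor, collagen-rich, connective held for both genes in both libraries. *Heyl*, a Notch target, followed it with 96.4 and 169, 47.3 and 77.7, and 3.77 and 9.21 CPM, and so did *Des* with 614 and 737, 221 and 250, and 21.9 and 31.8 CPM.

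**Figure D2:**
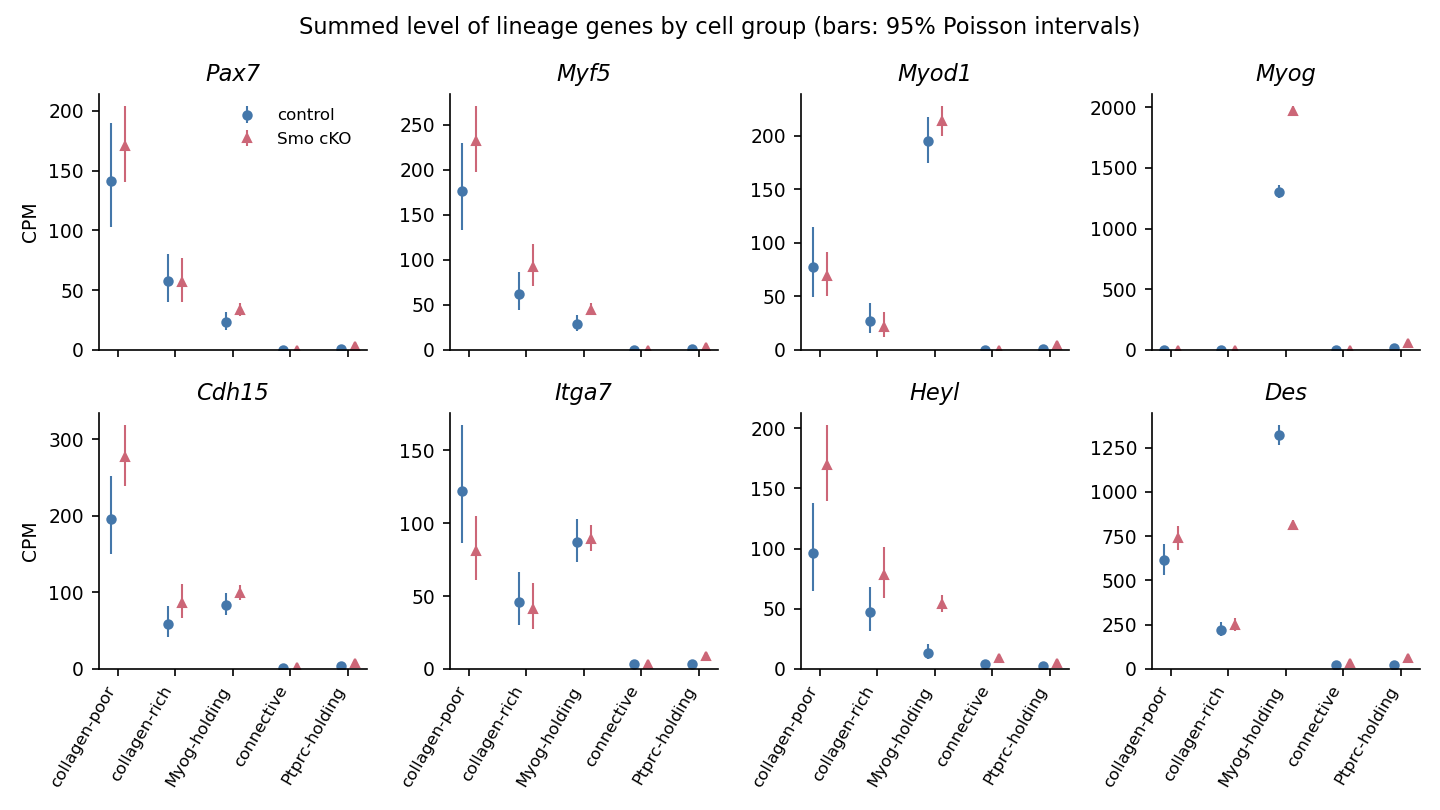
Summed level in CPM (y axis, from 0) of 8 genes in 5 cell groups, for the control (blue) and *Smo* cKO (red) library, with 95% Poisson intervals of counting error. *Pax7* is highest in collagen-poor myogenic cells (141 and 170 CPM) and *Myod1* in *Myog*-holding cells (195 and 214 CPM), and *Myog* is 0 in myogenic cells by the rule.

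The myogenic cells were next compared with all other kept cells of the same library. A gene entered at 50 CPM or more in either group in both libraries and was called when it differed at least 2-fold the same way in both. Of 2533 genes, 56 (2.21%) were higher and 74 (2.92%) lower in myogenic cells, and the median log2 ratio over all of them was −0.02 and −0.07. A gene that is high only in the myogenic cells can enter only through them, so the list counts over the genes that entered are given as a description, beside a count over every listed gene with a UMI, without *Pax7*, *Myf5*, *Myod1* and *Myog*. Of 22 such satellite cell genes 18 were above and 2 below the other cells in both libraries, where 19.2% and 46.5% of all 21959 genes were. Of the 8 that entered 6 were called higher, with medians of 2.38 and 2.27. They were *Cdh15*, *Itga7*, the neural adhesion gene *Ncam1*, the dystroglycan gene *Dag1*, the tetraspanin gene *Cd82* and the imprinted gene *Peg3*. *Dag1*, which anchors muscle cells to laminin, was at 402 and 518 CPM against 80.7 and 84.1 CPM elsewhere. *Cd82* was at 130 and 153 CPM against 23.8 and 37.0 CPM.

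The gene with the highest ratio outside the rule was *Cdh15*, with log2 ratios of 4.29 and 3.92. *Lix1* followed at 4.27 and 3.72, then *Heyl* at 3.79 and 3.37 and *Asb5*, an ankyrin repeat gene, at 3.71 and 3.39. *Popdc3*, *Spats2l*, *Rtn2*, *Ankrd1*, *Capn6*, *Sytl2* and the IGF-binding protein gene *Igfbp5* were among the next, between 2.36 and 3.28. In collagen-poor cells the separation was wider, since *Cdh15* was at 5.17 and 4.54, and genes that lay below the level filter in the whole set appeared. These were *Iqsec3* (5.06 and 4.35), the FGF receptor gene *Fgfr4* (4.78 and 4.13), the muscle transcription cofactor gene *Vgll2* (4.43 and 3.59), *Hs6st2* (4.16 and 3.48), the acetylcholine receptor clustering gene *Rapsn* (4.08 and 3.43) and the homeobox gene *Prox1* (3.81 and 3.62). Over 2632 genes, 131 (4.98%) were higher and 323 (12.3%) lower in the collagen-poor cells, with medians of −0.05 and −0.06. Without the rule genes, 16 of 22 satellite cell genes were above and 2 below the other cells in both libraries, beside 16.8% and 52.0% of all genes with a UMI.

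The collagen-rich cells were set against connective cells, which resemble them in collagen and hold no rule UMI by definition. Of 2506 genes 23 (0.918%) were higher and 13 (0.519%) lower, with medians of −0.03 and −0.07. Without the rule genes, 17 of 22 satellite cell genes were above and 2 below the connective cells in both libraries, beside 18.2% and 40.9% of all genes with a UMI. Of the 7 that entered 4 were called higher. None of the 8 connective markers was called, at medians of −0.28 and −0.55, and all 8 lay below the connective cells in both libraries. *Cdh15* stood at log2 ratios of 5.78 and 5.04, *Des* at 3.34 and 2.98, the filament gene *Nes* at 2.89 and 2.30, *Peg3* at 2.33 and 2.76, and *Cdkn1c*, an inhibitor of cell division, at 2.21 and 3.59.

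Genes for growth factors, cytokines and chemokines came from a list of 27. Of the 12 that entered 0 were higher and 3 lower, namely *Il6*, *Vegfa* and the activin subunit gene *Inhba*, with medians of −0.61 and −0.56. Over all 2533 genes 2.21% were higher and 2.92% lower. Over all 27, 4 were above and 20 below the other cells in both libraries, beside the shares of all genes with a UMI given above for the satellite cell list. In collagen-poor cells 9 of 12 were lower, beside 12.3% of all 2632 genes, with medians of −2.55 and −2.73. There the neutrophil chemokine gene *Cxcl1* was at 186 and 551 CPM against 1476 and 2138 CPM in connective cells. *Ccl2*, a monocyte chemokine gene, was at 148 and 195 CPM against 1226 and 2263 CPM, and *Cxcl12* at 6.43 and 10.3 CPM against 142.5 and 90.4 CPM over all other kept cells. Genes under 50 CPM in collagen-poor cells, as *Cxcl12* was, could enter that comparison only through the other cells. The filter thus favoured calls of lower, and the count of 9 of 12 is a description.

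None of 10 growth factor and cytokine receptor genes was called in the whole set, with medians of −0.28 and −0.24. That is near the share over all 2533 genes, of which 2.21% were higher and 2.92% lower. In collagen-poor cells *Fgfr4* was higher and *Pdgfra*, *Pdgfrb* and the shared cytokine receptor gene *Il6st* were lower, of 12 that entered. Over all 2632 genes there, 4.98% were higher and 12.3% lower. *Met*, the receptor for hepatocyte growth factor, lay under the level filter, at 24.4 and 37.5 CPM against 4.60 and 4.83 CPM in other cells. *Cxcr4*, the receptor for *Cxcl12*, was at 31.0 and 31.7 CPM.

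Adhesion and basal lamina genes were mixed. Of 20 that entered, 5 were higher (*Itga7*, *Cdh15*, *Ncam1*, *Dag1* and the collagen gene *Col18a1*) and *Col15a1* was lower, with medians of 0.06 and −0.04. Among all 2533 genes 2.21% were higher and 2.92% lower. The higher genes other than *Col18a1* were those already called in the satellite cell list, and *Cdh15* and *Itga7* entered through the myogenic cells alone. *Lama2*, the laminin chain of the muscle basal lamina, was at 21.0 and 37.5 CPM against 8.38 and 7.67 CPM in other cells, under the filter. *Vcam1*, a surface protein used to isolate satellite cells, was at 132 and 193 CPM against 89.8 and 81.2 CPM, and was called in the collagen-poor set, at 190 and 257 CPM, but not in the whole set.

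*Heyl* was the 1 called gene of 2 Notch pathway genes that entered (medians 1.94 and 1.74) and of 3 quiescence genes (0.02 and 0.30). It entered through the myogenic cells alone and belongs to both lists. Beside it, 2.21% of all 2533 genes were higher and 2.92% lower. The receptor genes *Notch1*, *Notch2* and *Notch3* were at 21.0 and 31.7, 59.8 and 49.7, and 36.5 and 62.7 CPM. Over all 14 quiescence genes, 9 were above and 1 below the other cells in both libraries, beside the shares of all genes with a UMI given above for the satellite cell list. *Calcr* was at 1 and 0 UMIs and *Chrdl2* at 1.11 and 0.72 CPM. *Cd34* was at 22.1 and 15.8 CPM against 54.3 and 42.9 CPM in other cells, and the FGF inhibitor gene *Spry1* at 22.1 and 40.3 CPM.

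Muscle genes outside the satellite cell list were also measured in both directions. Of 8 myogenic regulators that entered, *Pax7* and *Myf5* were higher, which follows from the rule. The medians of 0.59 and 0.61 include these rule genes. Of 3 commitment and fusion genes *Cdkn1c* and the acetylcholine receptor gene *Chrna1* were higher (2.26 and 1.62), with *Chrna1* at 103 and 140 CPM against 14.1 and 28.9 CPM in other cells. Of 4 sarcomere genes *Des* and *Tnnt1* were higher and *Acta1*, the actin of mature muscle, was lower (−0.43 and 0.65). For these lists too, the shares over all 2533 genes were 2.21% higher and 2.92% lower. *Chrna1* entered through the myogenic cells alone.

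Dissociation and injury both induce immediate early genes. None of 15 was called between the whole set and other cells, with medians of −0.34 and −0.40. In collagen-poor cells 8 of 15 were lower, beside 12.3% of all 2632 genes. Among the 8 were *Fos*, *Egr1* and *Atf3*, and the medians of the list were −1.11 and −1.58. *Atf3*, a stress-induced transcription factor gene, was at 3.21 and 22.0 CPM there against 68.2 and 73.1 CPM in connective cells. Genes under 50 CPM in the collagen-poor cells, as *Atf3* was, could enter only through the other cells, which favoured calls of lower. The count of 8 of 15 is therefore a description, as is that of the ligand genes.

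None of 4 mitosis genes and 1 S phase gene that entered was called (medians −0.03 and 0.16, and 0.66 and 0.44). Division was then measured per cell with each cell thinned to 5000 UMIs, which left out 1 control and 11 *Smo* cKO cells. At least 3 UMIs of a list of 21 mitosis (G2/M) genes were found in 17 of 49 (34.7%, 21.7 to 49.6) and 22 of 79 cells (27.8%, 18.3 to 39.1). The difference of −6.85 points had an interval of −23.3 to 9.08. In collagen-poor cells the shares were 21.4% and 22.2%, in collagen-rich cells 52.4% and 40.0%, in blood cells 34.8% and 30.8%, and in *Myog*-holding cells 23.6% and 30.2%. At 2000 UMIs, which keeps more of the shallow blood cells (880 and 1137 against 359 and 483), the shares were 6.90% and 18.8% in collagen-poor, 33.3% and 28% in collagen-rich and 12.05% and 10.2% in blood cells. Collagen-rich cells lay above the blood cells at both depths, whereas the order of collagen-poor and blood cells turned with the depth in the *Smo* cKO library.

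Within the myogenic cells, *Pax7* without *Myod1* was held by 31 of 50 and 43 of 90 cells (62% and 47.8%). Both genes were held by 8 and 28 cells, *Myod1* without *Pax7* by 10 and 7, and *Myf5* alone by 1 and 12. These classes are set by UMIs of the rule genes and move with depth, so they are a description. With the depth set to 5000 UMIs, *Pax7* without *Myod1* was at 34.7% and 35.4%, a difference of 0.749 points (−16.2 to 16.9), where the unthinned values had differed by −14.2 points. *Myod1* without *Pax7* was at 14.3% and 3.80% after thinning, a difference of −10.5 points (−23.1 to −0.604). At 2000 UMIs it was at 8% and 7.87%, a difference of −0.135 points (−11.7 to 8.79), over 50 and 89 cells in place of 49 and 79, so both the depth and the cells had changed. At 5000 UMIs it was 7.14% and 5.56% in collagen-poor cells, a difference of −1.59 points (−17.5 to 9.27). In collagen-rich cells it was 23.8% (5 of 21) and 0 of 25, which allows a share of up to 13.7% by Clopper-Pearson, a difference of −23.8 points (−45.1 to −5.07). At 2000 UMIs these collagen-rich shares were 4.76% and 0 of 25, a difference of −4.76 points (−22.7 to 9.12).

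**Figure D3:**
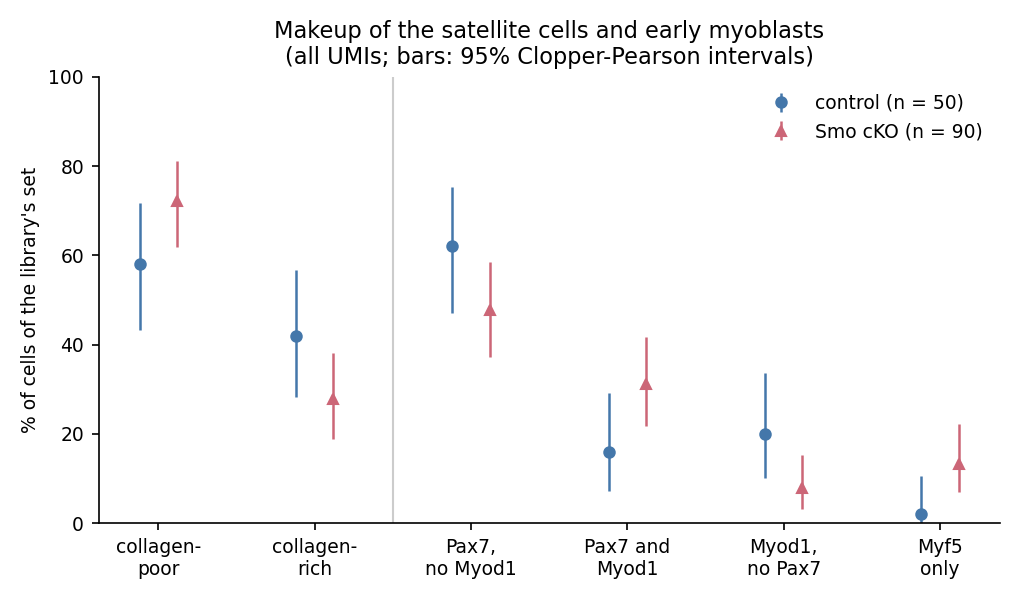
Percent of each library's myogenic cells (y axis) in the collagen sets and in the 4 classes set by UMIs of *Pax7*, *Myod1* and *Myf5*, control blue (n = 50) and *Smo* cKO red (n = 90), with 95% Clopper-Pearson bars. *Myod1* without *Pax7* stands at 20% and 7.78% and *Myf5* alone at 2% and 13.3%, before any thinning to equal depth.

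Cells with *Myod1* and no *Pax7* were set against cells with *Pax7* and no *Myod1* of the same library. The split used *Pax7* and *Myod1*, so the values of those genes follow from it. Of 2444 genes 18 (0.736%) were higher and 33 (1.35%) lower by the same 2-fold rule in both libraries, with medians of −0.01 and 0.02. *Heyl* was lower, with log2 ratios of −1.79 (−3.73 to −0.34) and −1.56 (−2.81 to −0.53), from 4 and 8 UMIs in the cells with *Myod1* only. *Id1*, an inhibitor of myogenic regulators, was lower at −1.69 (−3.63 to −0.23) and −1.39 (−3.07 to −0.08), from 4 and 5 UMIs, and had entered through the cells with *Pax7* only. *Klf7* and *Tiparp*, among the lowest ratios, had 2 UMIs each per library in the cells with *Myod1* only, under the floor of 3, so no fold is given for them. *Rrm2*, a subunit of the enzyme that makes DNA precursors, was higher at 1.19 and 1.72, going from 36.3 to 82.5 CPM and from 25.4 to 83.7 CPM, and so entered through the cells with *Myod1* only. The muscle enolase gene *Eno3* entered the same way and was higher at 3.04 (2.08 to 4.09) and 1.54 (0.13 to 2.88), from 33 and 9 UMIs.

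The same comparison in collagen-poor cells rested on 4 and 6 cells with *Myod1* only against 19 and 32 with *Pax7* only. It called 77 (3.2%) higher and 81 (3.36%) lower of 2410 genes. Of 20 S phase genes with a UMI, at any level, 7 were above and 2 below 0 in both libraries, beside 15.3% and 27.9% of all 11776 genes. *Mcm6*, *Rrm2* and *Uhrf1* were called higher, and all 3 had entered through the cells with *Myod1* only. *Heyl* and *Notch3* were lower, of 4 Notch pathway genes. With so few cells a single cell can carry a call.

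The *Myog*-holding cells were compared next, since they differ from the myogenic cells only in 1 part of the rule. Of 2428 genes 83 (3.42%) were higher and 17 (0.7%) lower in them than in the myogenic cells, with medians of −0.12 and −0.04. Over every listed gene with a UMI, without *Myog*, 22 of 23 sarcomere genes and 16 of 19 commitment and fusion genes were above the myogenic cells in both libraries and none below, beside 23.7% above and 28.9% below over all genes. Of those that entered, many only through the *Myog*-holding cells, 17 of 18 and 9 of 10 were called higher. *Mymk*, the fusion protein myomaker, was at 2.21 and 2.88 CPM in myogenic cells and 363 and 247 CPM in *Myog*-holding cells. *Mymx*, its partner myomixer, went from 5.54 and 5.76 CPM to 334 and 299 CPM. *Cdkn1a*, which stops the cell cycle, went from 143 and 98.7 CPM to 689 and 543 CPM. *Mybph* and *Ckm*, the muscle creatine kinase gene, had 0 UMIs in control myogenic cells and were at least 43.8-fold and 67.6-fold higher in *Myog*-holding cells, against a floor of 3 UMIs summed over the group (3.32 CPM).

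In the other direction, *Heyl* was lower in *Myog*-holding cells, at log2 ratios of −2.25 and −1.19. The basal lamina collagen genes *Col4a1* (−2.03 and −1.38) and *Col4a2* (−2.11 and −1.33) were lower too, as were *Igfbp5* (−1.15 and −1.54) and *Spp1* (−1.12 and −1.18). The rule genes, given as a description, stood at log2 ratios of −1.89 and −1.75 for *Pax7* and −1.82 and −1.84 for *Myf5*, and *Myod1* was at 195 and 214 CPM against 44.3 and 44.7 CPM. Because the rule asks for 0 UMIs of *Myog*, shallow cells that express it can pass. *Myog*-holding cells had median depths of 20424.5 and 20844.5 UMIs, above the myogenic cells. Set against the collagen-poor myogenic cells, the collagen-poor *Myog*-holding cells had 127 (5.42%) genes higher and 43 (1.83%) lower of 2344.

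*Smo*, the gene targeted in the mutant, was at 19.9 CPM in control and 9.36 CPM in *Smo* cKO myogenic cells, from 18 and 13 UMIs in 12 cells each. Its log2 ratio of *Smo* cKO over control was −1.09 (exact Poisson interval −2.24 to 0.02). In *Myog*-holding cells it was at 22.7 and 7.88 CPM, a log2 ratio of −1.52 (−2.24 to −0.81), and in all other kept cells at 17.3 and 10.7 CPM. A 3′ UMI can also come from a transcript of the recombined allele, so these counts do not measure deletion. The reporter was nearly absent, with *TdTomato* at 0 UMIs in the 50 control cells (under 3.32 CPM for a count of 0) and at 2.88 CPM, in 4 of 90 cells, in the *Smo* cKO library. *Sox9*, which drives the Cre, had UMIs in 19 and 29 cells, at 25.5 and 31.0 CPM.

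Other Hedgehog genes were low. *Gas1*, a co-receptor, was the 1 gene of 14 in the list at 50 CPM and was not called, at 81.9 and 54.7 CPM (log2 ratio −0.58, −1.06 to −0.10). The co-receptor gene *Cdon* was at 31.0 and 35.3 CPM and *Boc* at 4.43 and 8.64 CPM. The receptor and target gene *Ptch1* was at 12.2 and 9.36 CPM, and *Gli1* at 1.11 and 1.44 CPM. Summed over the list the log2 ratio was −0.26 (−0.56 to 0.04), against −0.40 in all other kept cells.

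Across all genes of the myogenic cells, 2615 reached 50 CPM in at least 1 library. Of these, 31 genes (1.19%) were higher in *Smo* cKO cells by 2-fold or more and 17 (0.65%) were lower, and the median log2 ratio was 0.02. Between genotypes, *Myog*-holding cells had 24 (0.943%) genes higher and 55 (2.16%) lower of 2544, and connective cells had 18 (0.698%) higher and 5 (0.194%) lower of 2577. The highest ratios with UMIs in both libraries were those of *Isg15*, an interferon-induced ubiquitin-like protein gene, *Cxcl10*, an interferon-induced chemokine gene, and *Bst2*, an antiviral membrane protein gene. *Isg15* went from 17.7 to 233 CPM (log2 ratio 3.72, 3.00 to 4.54), in 6 of 50 and 55 of 90 cells. *Cxcl10* went from 21.0 to 159 CPM (2.92), in 8 and 39 cells. *Bst2* went from 44.3 to 313 CPM (2.82), in 16 and 70 cells. *Lgals3bp* (2.70), *Gm10036* (2.37), *Xaf1* (1.96), *Socs3* (1.65), the MHC class I gene *H2-T22* (1.65) and the immunoproteasome gene *Psmb8* (1.52) followed.

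These ratios were not confined to the myogenic cells. In all other kept cells the log2 ratio was 3.49 for *Isg15*, 1.69 for *Cxcl10*, 2.09 for *Bst2*, 2.55 for *Xaf1* and 1.09 for *Psmb8*. Of 22 interferon-stimulated genes with a UMI, at any level, all 22 were above 0 in *Smo* cKO over control myogenic cells, beside 50.6% of all 14021 genes with a UMI outside the rule. The 5 at 50 CPM, of which *Isg15*, *Bst2*, *Xaf1* and *Lgals3bp* entered through the *Smo* cKO library alone, were all called higher (median 2.70). Summed over the list of 23 genes, the level went from 234 to 1216 CPM (log2 ratio 2.38, 2.17 to 2.59). The summed ratio was 2.49 in collagen-poor, 2.27 in collagen-rich, 2.29 in *Myog*-holding, 2.57 in connective and 1.84 in blood cells, and 2.14 in myogenic cells without barcodes found in both libraries.

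**Figure D4:**
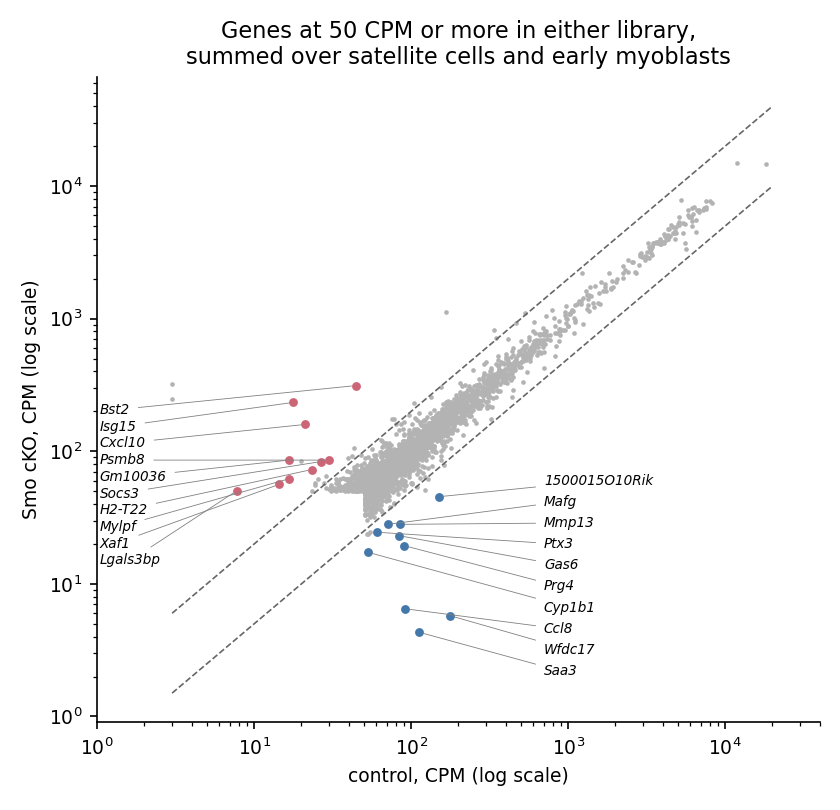
Each point is a gene at 50 CPM or more in myogenic cells of at least 1 library, with its summed level in control (x axis) and *Smo* cKO (y axis) cells in CPM on log axes, dashed lines marking 2-fold. Interferon-stimulated genes such as *Isg15* (17.7 and 233 CPM) lie above the upper line, and *Bglap* and *Bglap2*, at 0 in the control, are drawn at 3 CPM.

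In several of the other large ratios most UMIs of 1 library were in 1 cell. *Bglap* and *Bglap2*, which encode osteocalcin of bone-forming cells, were at 0 in the control and at 320.5 and 246 CPM in the *Smo* cKO cells, but 444 of 445 and 340 of 342 UMIs were in 1 cell. That cell's barcode occurred in both libraries. The muscle light chain gene *Mylpf* went from 16.6 to 61.9 CPM (1.90), with 64.0% of the *Smo* cKO UMIs in 1 cell, and was at 22.6 CPM without it. Of the falls, *Wfdc17* (176 to 5.76 CPM), *Ccl8* (91.9 to 6.48 CPM), *Saa3* (112 to 4.32 CPM) and *Mmp13* (85.3 to 28.1 CPM) had 87.4%, 96.4%, 61.4% and 71.4% of their control UMIs in 1 cell each. That was the same collagen-poor cell for *Wfdc17* and *Ccl8*, and 2 other cells, both collagen-rich, for *Saa3* and *Mmp13*. Without its top cell the control level was 22.3 CPM for *Wfdc17*, 3.35 CPM for *Ccl8*, 45.1 CPM for *Saa3* and 25.9 CPM for *Mmp13*, so *Saa3* and *Wfdc17* stayed above their *Smo* cKO levels by more than 2-fold and the other two did not. All 4 control levels were then under 50 CPM, so none of these genes would be called in the whole set. *Saa3*, an acute-phase gene, had a log2 ratio of −1.33 in all other kept cells, where that of *Wfdc17* was 0.79.

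Falls spread over more cells were those of *Gas6*, a ligand of TAM receptors, from 84.1 to 23.0 CPM (−1.87) in 19 and 19 cells, of *1500015O10Rik*, which encodes the secreted protein augurin, from 149 to 45.4 CPM (−1.72) in 27 and 24 cells, and of *Mafg*, a small Maf transcription factor gene, from 70.9 to 28.1 CPM (−1.33) in 33 and 28 cells. In collagen-poor cells *Gas6* was at 16.1 and 10.3 CPM, from 5 and 7 UMIs, and *1500015O10Rik* at 45.0 and 14.7 CPM, so both were under 50 CPM and not called there, whereas *Mafg* was called at 67.5 and 22.0 CPM. *Prg4* (−2.21), *Cyp1b1* (−1.62) and *Ptx3* (−1.31) were lower in the whole set. In collagen-poor cells *Prg4* had 3 and 17 UMIs and *Ptx3* 1 and 9 UMIs, too few to give a direction. With at least 5 rule UMIs *Prg4* was at 1.14 and *Cyp1b1* at 0.52. Over 11 alternatives the ratio of *Cyp1b1* ran from −2.71 to 0.52 and turned sign in 1. In all other kept cells the ratios were −0.23 for *Gas6*, −0.64 for *1500015O10Rik*, −0.49 for *Mafg*, −0.97 for *Prg4*, −0.89 for *Cyp1b1* and −0.74 for *Ptx3*, each below 0 and none 2-fold.

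Nearly all satellite cell genes were under the 2-fold line. So were most of all 2615 genes, of which 1.19% were higher and 0.65% lower. Without the rule genes, 16 of 22 satellite cell genes with a UMI were above and 6 below 0, beside the share of all genes above 0 given for the interferon list. Of 11 at 50 CPM 1 was higher, *Msc*, a repressor of myogenic regulators, which went from 24.4 to 55.5 CPM (1.19, 0.49 to 1.94) in 17 and 39 cells and entered through the *Smo* cKO library alone. The median of the 11 was 0.37. *Msc* was also the 1 called gene of 9 myogenic regulators outside the rule, whose median was 0.25. *Cdh15* had a log2 ratio of 0.75 (0.41 to 1.11) and *Itga7* of −0.25 (−0.73 to 0.24). Within the sets the ratio of *Cdh15* was smaller, from 196 to 276 CPM in collagen-poor and from 59.1 to 86.2 CPM in collagen-rich cells. The collagen-rich cells, lower in *Cdh15*, held 591996 of the 903166 control UMIs and 707550 of the 1388320 *Smo* cKO UMIs, so the whole-set ratio also carries this difference in makeup. In the collagen-poor cells, where 87 (3.39%) of 2567 genes were higher and 50 (1.95%) lower, none of 15 satellite cell genes outside the rule was called. The lowest 7 ratios there were of genes that macrophages express (*Wfdc17*, *Ccl8*, *Ctss*, *Lyz2*, *Pf4*, *Tyrobp* and *Apoe*). The 8 macrophage markers summed to 344 and 80.8 CPM in collagen-poor cells, and without the 2 control cells that held the most, 51 and 47 UMIs, to 30.2 and 80.8 CPM. Leaving those 2 cells out gave 96 genes higher and 44 lower of 2593 in collagen-poor cells, and 32 higher and 14 lower of 2628 in all myogenic cells. After thinning, *Itga7* was in 53.6% of control and 27.8% of *Smo* cKO collagen-poor cells, a difference of −25.8 points (−45.5 to −3.72), but at 2000 UMIs in 13.8% and 9.38%, a difference of −4.42 points (−21.9 to 8.28).

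Of 14 Notch pathway genes with a UMI 7 were above and 7 below 0. Of the 5 at 50 CPM *Hes1*, which entered through the *Smo* cKO library alone, was higher, from 28.8 to 64.8 CPM (1.17, 0.53 to 1.86), and the median was 0.78. *Hes1* was at 21.3 and 49.0 CPM in all other kept cells, so it was higher there too. It was also the 1 called gene of 4 quiescence genes (median 0.50). *Heyl*, under 2-fold, was at 64.2 and 122 CPM (0.93, 0.49 to 1.39) and in *Myog*-holding cells at 13.5 and 53.8 CPM. In collagen-poor cells *Heyl* was at 96.4 and 169 CPM, a smaller ratio than in the whole set. Of 21 sarcomere genes with a UMI, at any level, 19 were above and 2 below 0, beside 50.6% of all genes above 0. Of the 6 at 50 CPM *Tnnt2* and *Mylpf* were called higher (median 0.67), both of which entered through the *Smo* cKO library alone, and *Mylpf* was at 22.6 CPM there without 1 cell. *Tnnt2*, the cardiac troponin T gene that immature skeletal muscle also uses, went from 25.5 to 61.9 CPM in myogenic cells and stood at 996 and 819 CPM in *Myog*-holding cells. The sarcomere sum was 650 and 1013 CPM in myogenic cells (0.64), 215 and 483 CPM in blood cells (1.17), and 20004 and 9028 CPM in *Myog*-holding cells (−1.15). The part of free muscle RNA in the low sums was not tested.

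Commitment and fusion genes (0 of 5 called, median 0.25), ligands (0 of 10, 0.26), receptors (0 of 12, −0.15), adhesion and basal lamina genes (0 of 21, 0.02), mitosis genes (0 of 6, 0.37) and immediate early genes (0 of 13, 0.37) gave no calls at 2-fold. Over all 2615 genes 1.19% were higher and 0.65% lower, so lists of this size could hold no call and these counts set none of them apart. Of 4 S phase genes *Pcna*, the sliding clamp of DNA replication, was lower, from 53.1 to 23.8 CPM (−1.16, −1.85 to −0.49) in 23 and 19 cells, and the list's median was −0.36. Of 21 S phase genes with a UMI 3 were above and 18 below 0, beside 50.6% of all genes above 0. In collagen-poor cells 6 were above and 15 below, and in collagen-rich cells 5 and 16. The median log2 ratio over all genes at 50 CPM was 0.03 in collagen-poor and 0.01 in collagen-rich cells. The list summed to 630 and 509 CPM in all myogenic cells, 617 and 489 CPM in collagen-poor and 637 and 527 CPM in collagen-rich cells, and collagen-rich cells were 42% and 27.8% of the libraries' myogenic cells.

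**Figure D5:**
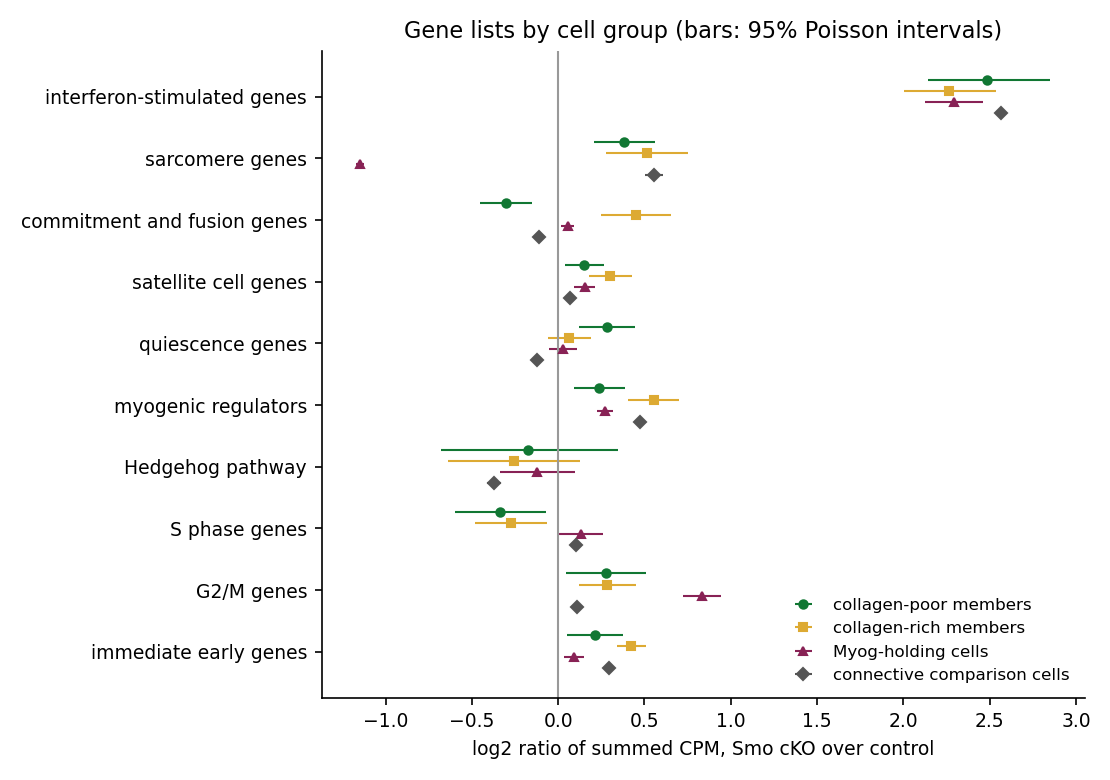
Log2 ratio of *Smo* cKO over control (x axis) of the summed CPM of 10 gene lists in collagen-poor and collagen-rich myogenic cells, *Myog*-holding cells and connective cells, with 95% Poisson intervals. The interferon list lies between 2.27 and 2.57 in all 4 groups, and the sarcomere list lies above 0 in 3 and at −1.15 in *Myog*-holding cells.

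The calls depended in part on which cells were used. Of the 31 genes higher in *Smo* cKO myogenic cells, 17 were also called in collagen-poor cells (54.8% of the 31 and 19.5% of the 87 there), 24 in collagen-rich cells (77.4% of the 31), where 62 genes (2.27%) were higher and 21 (0.767%) lower of 2737. Without barcodes found in both libraries 22 were called (71.0%), where 31 (1.19%) were higher and 23 (0.883%) lower of 2604. Of the 17 lower genes the numbers were 5, 8 and 11. In collagen-poor cells 29 of the 31 were above 0 and 14 of the 17 below 0.

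Markers of other cell types were measured in the same cells. The 8 connective markers summed to 19660 CPM in control and 13250 CPM in *Smo* cKO myogenic cells, with *Col1a2* most abundant and none at 0, and 0 of 7 were called between genotypes (median −0.45). The 8 macrophage markers summed to 146 and 74.9 CPM, mostly *Lyz2*, against 5336 and 8903 CPM in blood cells. Of the control *Lyz2* UMIs 47 of 81 were in 1 cell. The 5 neutrophil markers summed to 21.0 and 41.1 CPM, with *S100a8* most abundant and 3 and 2 at 0.

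The 5 endothelial markers summed to 1.11 and 10.8 CPM, with *Kdr* at 0 and 0.72 CPM. The lymphoid markers summed to 4.43 and 0.720 CPM and the epithelial markers to 3.32 and 2.88 CPM. The 6 mural markers summed to 369 and 503 CPM, mostly *Des*, which muscle cells also express. The 7 cartilage and bone markers summed to 142 and 415 CPM, with *Runx2* most abundant in control and *Bglap* in *Smo* cKO cells. The 5 red cell markers summed to 217 and 467 CPM, with *Hbb-bs* at 104 and 231 CPM, against 1690 and 4869 CPM for the list in all other kept cells, and 2 of 3 that entered (*Hbb-bs* and *Hba-a2*) were higher in *Smo* cKO myogenic cells. The connective sum lay mostly in the collagen-rich set, at 28595 and 22993 CPM against 2661 and 3123 CPM in the collagen-poor set. The part of these markers in the differences between genotypes was not tested.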

How the data were processed

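The submitters' processing notes name Cell Ranger 3.0.2 and the mouse genome build mm10, and the study's methods give default parameters. The deposited matrices hold the authors' raw UMI counts per gene and barcode, 10747 and 10512 barcodes over 31054 features, with no normalization. Animals were pooled before loading, so each genotype is 1 library.

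Cells with 200 or more genes and under 10% mitochondrial UMIs (13 genes) were kept. UMIs were summed over the cells of a group in each library and scaled to CPM. With 1 library per genotype no test was possible, and a gene was called at 50 CPM in at least 1 library and a 2-fold difference. Intervals are exact Clopper-Pearson for shares, Newcombe for their differences and exact conditional Poisson for log2 ratios, all at 95%. Cells were thinned to 5000 UMIs (2000 as an alternative) with a fixed seed.

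The genes named are those of 14 fixed gene lists and 10 marker lists, the 10 highest and 10 lowest *Smo* cKO over control ratios with UMIs in both libraries (sex-linked, mitochondrial, ribosomal protein, hemoglobin and immunoglobulin genes left out), *Bglap* and *Bglap2*, which had no control UMI, and the 10 to 15 most different genes of the other comparisons. The result of 1 marker list is not reported here. For collagen-poor cells and against connective cells the same order was used. The cells and lists were chosen with earlier results of these data known. Scrublet's own threshold called 0 of 10057 and 2 of 9507 cells (0.021%), so doublets were not removed. Alternatives varied the rule, the gene and mitochondrial filters, the CPM limit, the scaling and weighting of cells, the barcodes found in both libraries, the doublet scores and the control cells richest in macrophage UMIs. Python 3.11.15, numpy 2.4.6, scipy 1.17.1, pandas 2.3.3, scanpy 1.11.5 and matplotlib 3.10.9 were used. The code was tested on simulated data.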

Additional observations from a re-analysis of the deposited data

Results flagged for a closer look

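Some gene lists had summed ratios of *Smo* cKO over control on opposite sides of 0 in a pair of related cell groups, with 1 library per genotype, and the differences between the groups were not tested. The sarcomere genes had a log2 ratio of 0.64 in myogenic cells and −1.15 in *Myog*-holding cells. The mural markers, most of whose UMIs are *Des*, did the same at 0.45 and −0.70. The S phase genes were at −0.31 in myogenic cells and 0.13 in *Myog*-holding cells. The commitment and fusion genes were at −0.30 in collagen-poor and 0.45 in collagen-rich cells. The connective markers were at 0.23 in collagen-poor and −0.31 in collagen-rich cells.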

How the results depend on the processing

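With 1 library per genotype no replicate could be left out. No paired analysis was possible because each genotype has 1 library. The share difference of 0.450 points was 0.172 when cells with UMIs of *Pdgfra* or *Prrx1* were left out and 1.67 when *Myog*-holding cells were kept, and moved less under the other 10 alternatives. The ratio of *Smo* ran from −1.77 to −0.65 over 13 alternatives and that of the interferon sum from 1.88 to 3.86.

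The count of 31 higher genes became 141 with at least 5 rule UMIs, 612 with at most 2000 genes per cell, 594 without cells holding *Pdgfra* or *Prrx1*, 87 in collagen-poor cells, 48 with cells weighted equally, 122 at 20 CPM and 15 at 100 CPM. The count of 17 lower genes became 10 with at least 2 rule UMIs, 41 with at least 5, 821, 598 and 50 in those 3 sets of cells, 35 with *Myog*-holding cells kept, 33 without the top 8% of doublet scores, 32, 97 and 7. At most 2000 genes leaves 6 and 22 cells, as does leaving out *Pdgfra* and *Prrx1*, so fewer UMIs stand behind those counts.

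The share of *Pax7* without *Myod1* differed by −25.5 points with at most 2000 genes per cell. The mitosis share differed by 9.09 points there and by −33.8 points without *Pdgfra* or *Prrx1*. In collagen-poor cells the *Myod1* comparison called 77 and 81 genes and the *Myog* comparison 127 and 43. Without barcodes found in both libraries these were 24 and 40, and 93 and 24.

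Of 252 values for single genes and the interferon sum 191 stayed, 51 moved and 10 turned sign. The causes were not tested. With at least 5 rule UMIs *Prg4* was at 1.14, *Cyp1b1* at 0.52 and *Mmp13* at 1.63. With at most 2000 genes *Xaf1* was at −0.51 and *Mylpf* at −1.51. *Mylpf* was at −0.0616 without *Pdgfra* or *Prrx1* and −1.38 with *Myog*-holding cells. *Mmp13* was at 0.00 (0.0037) without barcodes found in both libraries. In collagen-poor cells *Prg4* was at 1.37 (3 and 17 UMIs) and *Ptx3* at 2.04 (1 and 9 UMIs). When the rule was applied after thinning, 10 of 6861 and 41 of 6324 cells met it.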

Other observations

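The ribosomal protein gene *Rpl29*, left out of the named genes by rule, was at 167 CPM in control and 1118 CPM in *Smo* cKO myogenic cells, a log2 ratio of 2.74, and at 2.64 in all other kept cells. *Gm10036*, a ribosomal protein gene copy, had ratios of 2.37 and 2.01. Whether reads shared with near-identical copies or a strain difference between the pooled animals bear on these levels was not tested.

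Some values in *Myog*-holding cells differed between the thinning depths. At 5000 UMIs per cell *Pax7* was in 4.17% of control and 14.3% of *Smo* cKO *Myog*-holding cells (difference 10.1 points, 1.55 to 16.6), and *Smo* in 19.4% and 4.95% (−14.5 points, −25.3 to −5.92). At 2000 UMIs per cell *Pax7* was in 5.41% and 5.91% and *Smo* in 2.70% and 1.61%, and both intervals of the difference included 0. *Acta1*, the actin of mature muscle, was at 3889 and 1293 CPM in them, and the developmental regulator *Mef2c* at 375 and 153 CPM. Red cell markers summed to 886 and 2500 CPM in the same cells.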
